A study of Bos taurus with 14 samples.

Results

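Bovine embryonic stem cells at passage 10 (P10) were set against whole cattle blastocysts, the embryos from which such cells are derived. All libraries with those labels were taken: 2 stem cell libraries, 1 from each of the CTFR-bESC lines A and B, and 2 libraries of blastocysts, pools A and B, so 4 of the 14 in the series. The stem cell lines were grown on mouse embryonic fibroblast (MEF) feeders in CTFR, a custom medium to which FGF2 and IWR1, an inhibitor of WNT signalling, were added. Each blastocyst library was made from 10 embryos that the labels call in vivo, with no culture treatment given. Age of the embryos, breed and genotype are not given in the labels. The 2 skin fibroblast lines entered the fit to share 1 estimate of the spread. They also count in the filter on low values, which left 12027 genes with them and 11454 with the 4 libraries alone. Nothing in the labels says how many cultures or donor animals stand behind a library. The p-values therefore rest on the spread between 2 stem cell lines, between 2 pools and between 2 fibroblast lines. That spread may in part be technical.

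A blastocyst is a hollow embryo with an outer epithelium, the trophectoderm, that pumps fluid and later forms the placenta, and an inner cell mass that holds epiblast and hypoblast. Stem cells are derived from the inner cell mass, whose epiblast gives rise to the body. Pluripotency is described as naive when it resembles the epiblast before implantation and as primed when it resembles the later epiblast, which depends on FGF signalling. Cells cultured with FGF2 and a WNT inhibitor have been described in several mammals as primed. A whole blastocyst holds all 3 of these tissues, with trophectoderm the most numerous. In bulk RNA, fewer cells of a type and less RNA per cell cannot be told apart.

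The deposited values were RPKM, reads scaled by gene length and library size, and depth in reads is unknown. Summed RPKM lay between 349527 and 435754 in the 6 libraries of the fit. The 2 most abundant features took 65.8% and 64.0% of that sum in the blastocyst pools and 2.4% to 3.4% in the other libraries. Each library was therefore rescaled to its sum without those 2 features, which multiplied the pools by 2.54 and 2.56 and the P10 libraries by 1.02 and 0.980. After rescaling, 9259 and 9133 features reached 1 RPKM in the pools, and 10739 and 11184 in the P10 libraries. All levels below are rescaled RPKM and are given for line A, then line B, and for pool A, then pool B.

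Of 12027 genes tested with limma, 5333 (44.3%) were called higher in P10 stem cells and 2569 (21.4%) lower, at a Benjamini-Hochberg adjusted p under 0.05. The fitted change of the median gene was 0.52 on the scale of log2(rescaled RPKM + 1), and 0.45, 0.11 and 0.06 under 3 other rescalings. Changes are therefore written as relative changes, the fitted log2 change minus that of the median gene, while the adjusted p tests the change before that subtraction. Over all genes tested the median relative change is 0 by construction. Called in the same direction under all 4 rescalings were 3415 genes (28.4%) higher and 2514 (20.9%) lower. No gene called with the rescaling used here was called in the opposite direction by any of the 3 others. Counts of list members are to be read against these shares, since a list near them does not stand out from all genes. All lists were chosen with earlier results of these data known, so their counts and medians are descriptions and not tests. Higher calls made up 67.5% of calls here and 53.7% and 51.9% under median-of-ratios and quantile scaling. As deposited, without rescaling, 8583 genes were called higher and 862 lower. Without pool B the lower calls dropped to 1638. The filter asks for 1 RPKM in 2 libraries. A gene expressed only in blastocysts, or only in P10 cells, thus passes through that group alone and can be called in 1 direction only. List counts below include such genes. Such a gene is not tested once a library of that group is left out. Counts given below without a library are lower for that reason too.

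**Figure D1:**
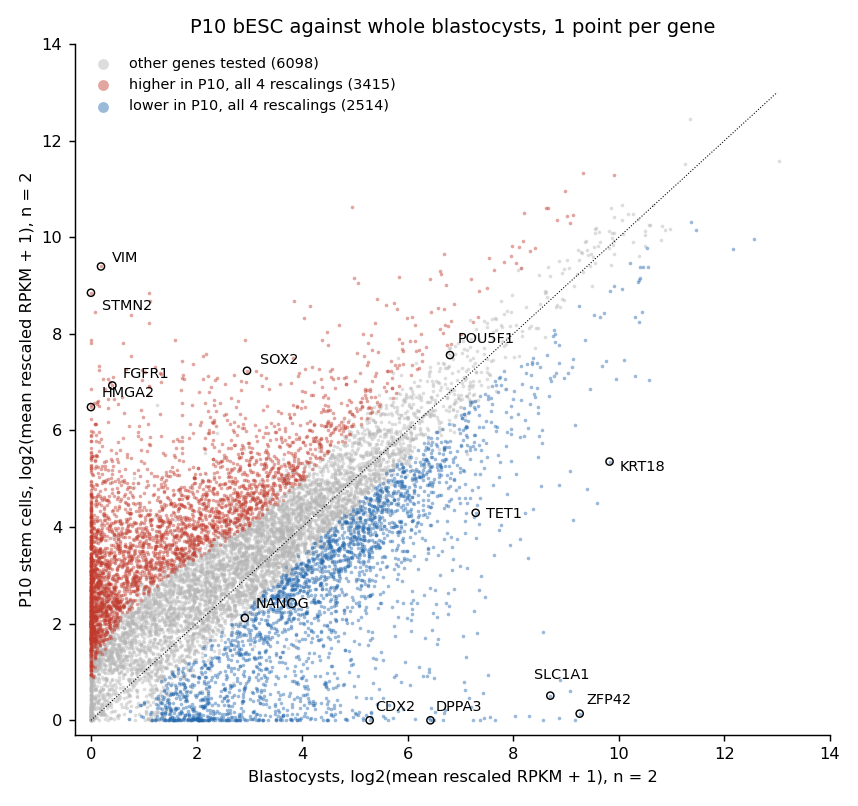
Mean level in blastocysts (x axis) against mean level in P10 stem cells (y axis), both as log2(mean rescaled RPKM + 1) with n = 2, 1 point per tested gene, coloured by its call under all 4 rescalings. Genes called higher or lower flank a central band of genes without such a call; VIM and STMN2 lie near 0 in blastocysts, and ZFP42 and SLC1A1 near 0 in P10 cells.

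Differences between the groups were larger than those between the libraries of a group. The median absolute difference was 0.26 log2 between the 2 P10 lines, 0.26 between the 2 pools and 1.12 between the group means. A difference above 1 log2 was found for 545 genes between the lines, for 449 between the pools and for 6599 between the group means. Levels of the groups did not overlap for 10070 of the 12027 genes, so lack of overlap does not set a named gene apart. Pearson's r of log2 levels across genes, which are not independent replicates, was 0.96 between the lines, 0.98 between the pools and 0.59 to 0.63 between a line and a pool.

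**Figure D2:**
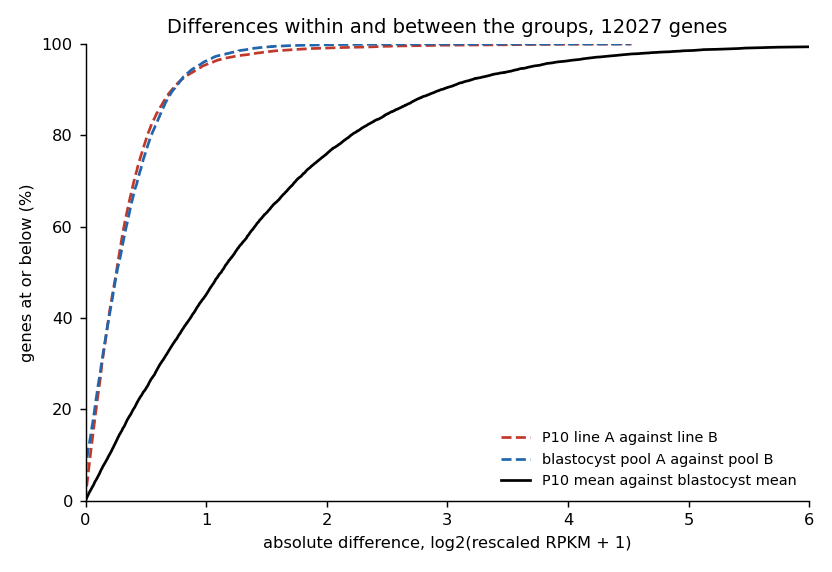
Share of the 12027 tested genes (y axis, percent) whose absolute log2 difference is at or below the value on the x axis, for the 2 P10 lines (red, dashed), the 2 blastocyst pools (blue, dashed) and the 2 group means (black). Both dashed curves have their median at 0.26 and the black curve at 1.12, which holds the median gene's change of 0.52.

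Most core pluripotency genes that could be tested were higher in the P10 cells. POU5F1, which encodes OCT4, was at 228 and 148 in the stem cells and 123 and 97.8 in blastocysts. Every P10 value exceeded every pool value, but the relative change was only 0.22 (SE 0.25) with an adjusted p of 0.0388 by limma, and 0.341 under median-of-ratios scaling. SOX2, the partner of OCT4 on DNA, was at 155 and 145 against 5.37 and 8.15, a relative change of 3.79 (SE 0.38, limma adjusted p = 0.000122). LIN28B, which blocks maturation of let-7 microRNAs, was at 67.0 and 54.9 against 5.11 and 0.479. LIN28B differed between the 2 pools, and both lines were above both pools. NANOG, a factor of the early epiblast, was low and uneven, at 4.58 and 2.11 in P10 cells and 1.39 and 11.7 in the pools, and the groups overlapped (limma adjusted p = 0.645). Without pool A the limma adjusted p for NANOG was 0.0206, with P10 cells lower. For POU5F1 it was 0.211 without line A, 0.0569 without pool A and 0.177 without pool B. Of 9 core genes tested, 6 rose and none fell, 5 of the 6 under all 4 rescalings, and the list's median relative change was 1.62. The other risers were SALL4, UTF1 and PODXL, a sialomucin of the stem cell surface (148 and 80.6 against 8.49 and 10.1). DNMT3B, TRIM71 and NANOG were not called, and TDGF1, FOXD3 and TERT were too low to be tested.

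Genes of the naive state were lower in the P10 cells almost throughout. Of 13 tested members 12 fell, under all 4 rescalings, and none rose, and the median relative change was -4.98. Without pool A, and without pool B, 4 members were called lower. ZFP42, a zinc finger gene also known as REX1, was at 0.0490 and 0.152 in stem cells and at 470 and 752 in blastocysts. Its relative change was -9.60 (SE 0.27, limma adjusted p = 8.68e-06). DPPA3, a maternal factor that protects DNA methylation, was listed at 0 in both lines and stood at 87.7 and 82.8 in the pools. The Kruppel-like factor KLF4 was at 1.48 and 2.99 against 95.2 and 94.0, and its relative KLF5 was at 7.63 and 3.35 against 151 and 174. The T-box factor TBX3 was at 0.0378 and 0.260 against 58.0 and 52.7. ESRRB, an orphan nuclear receptor of the naive network, was at 0.0786 and 0.303 against 24.2 and 22.5. DPPA2, NR5A2, ARGFX and FGF4 were listed at 0 in both lines and were above 0 in both pools. The exception was PRDM14, a repressor of FGF signalling in mouse cells, at 36.1 and 15.9 against 26.2 and 24.5, where the groups overlapped. Several of these genes, KLF5 and TBX3 among them, are known from trophectoderm as well as epiblast.

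Genes listed for the primed epiblast went the other way, in a list chosen with earlier results of these data known. Of 12 tested, 11 rose and none fell, 10 under all 4 rescalings, with a median relative change of 4.29. Without line A, 7 were called higher. SALL2, a zinc finger factor, was at 122 and 143 in P10 cells and 0.358 and 0.141 in blastocysts, a relative change of 6.23 (SE 0.25, limma adjusted p = 1.23e-05). HMGA2, an architectural chromatin protein and let-7 target, was at 86.6 and 90.4 and listed at 0 in both pools. SFRP2, a secreted WNT modulator, was at 87.0 and 144 and also listed at 0 in both pools. The groups did not overlap for any of these 3 genes, as for 10070 of the 12027 genes tested. The rule that named SALL2 and SFRP2 asked for this. CDH2, which encodes N-cadherin, was at 135 and 103 against 0.583 and 1.72. Among zinc finger genes of the anterior epiblast, ZIC2 was at 130 and 124 against 1.58 and 1.42, and ZIC5 at 40.3 and 40.4 against 0.441 and 0. The POU factor POU3F1 was at 18.3 and 16.9 and listed at 0 in the pools. OTX2, a head organiser factor used as a primed marker, was already abundant in blastocysts at 76.2 and 72.2 against 142 and 118 in P10 cells, and its call was lost under another rescaling. FGF5 and NODAL, ligands often used as markers of this state, were too low in all 4 libraries to be tested, with highest values of 0.557 and 1.13.

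**Figure D3:**
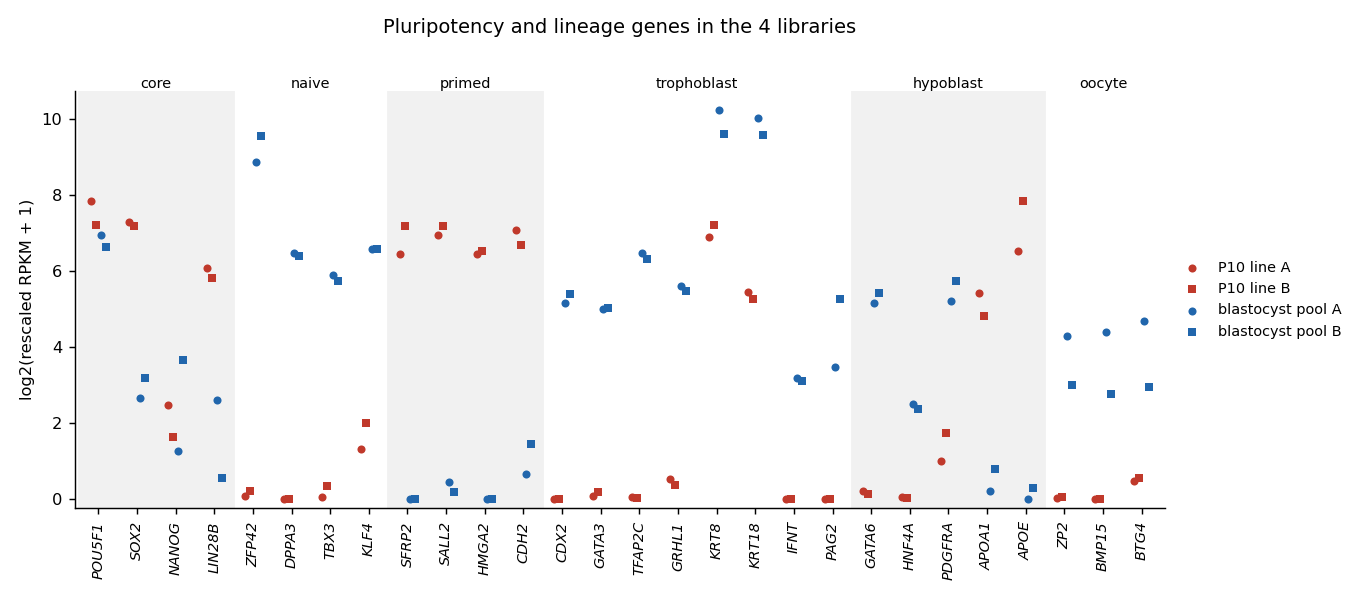
Level of each gene in each library, as log2(rescaled RPKM + 1), with P10 lines in red, blastocyst pools in blue, circles for A and squares for B. Naive, trophoblast and oocyte genes lie below 1 in the P10 lines apart from KLF4, KRT8 and KRT18, and primed genes lie below 2 in the pools.

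Trophectoderm regulators were mostly lower in the P10 cells. Of 18 transcription factors tested, 14 fell, all of them under all 4 rescalings, and 2 rose, with a median relative change of -2.47. Without pool A there were 7 lower calls, and without pool B 8. CDX2, which maintains trophectoderm, was listed at 0 in both lines and was at 34.9 and 40.7 in the pools. GATA3, a regulator of trophoblast fate, was at 0.0654 and 0.135 against 31.2 and 31.8, a relative change of -5.40 (SE 0.21, limma adjusted p = 1.65e-05). The AP-2 factor TFAP2C was at 0.0317 and 0.0245 against 88.6 and 79.3. GRHL1, a grainyhead factor of epithelia, was at 0.438 and 0.300 against 47.5 and 43.4. For each of these 4 genes both pools were far above both lines, where 10070 of the 12027 genes tested had no overlap in either direction. TEAD4, the DNA-binding partner of YAP in trophectoderm, was not silent, at 5.71 and 4.39 against 21.3 and 17.9. ARID3A, an AT-rich DNA-binding protein, went against its list at 36.4 and 33.1 in P10 cells and 2.02 and 1.62 in blastocysts. The other member that rose, ETS2, was called under only some rescalings. ELF5 and EOMES, trophoblast factors of the mouse, were under 1 in all 4 libraries.

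Genes listed for secretion by ruminant trophoblast, which include its signals to the mother, were low or listed at 0 in P10 cells. Not every member of the list encodes a secreted protein. All 6 tested members fell, under all 4 rescalings, with a median relative change of -3.02. None was called without pool A or without pool B, when most were no longer tested. Interferon tau, encoded by IFNT and used by cattle embryos to signal pregnancy, was listed at 0 in both lines and was at 8.02 and 7.55 in the pools. PAG2, a pregnancy-associated glycoprotein, was listed at 0 in the lines and was at 10.2 and 37.2 in the pools. Both belong to multigene families, so reads may have been split among near-identical copies. Both passed the filter only through the pools, so only a fall could be called for them. PTGES, an enzyme that makes prostaglandin E2, differed between the lines, at 0.409 and 3.72, and stood at 17.6 and 16.2 in the pools. PTGES was also found at 35.7 and 6.55 in the fibroblasts and at 11.7 to 26.4 in later passages of the lines. For PTGES the limma adjusted p was 0.12 without line A, 0.0876 without pool A, 0.0820 without pool B and 0.130 as deposited. The remaining 13 members with a row were too low to be tested.

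Keratins were lower in the stem cells, though KRT8 and KRT18, the paired keratins of simple epithelia, were still expressed there. KRT18 was at 42.8 and 37.1 in P10 cells and 1051 and 759 in blastocysts, a relative change of -4.97 (SE 0.22, limma adjusted p = 2.08e-05). KRT8 was at 118 and 147 against 1199 and 783, and its limma adjusted p of 0.0132 became 0.0733 with a pseudocount of 0.1. Its SE of 0.75 also holds the spread between the fibroblast lines, at 6.61 and 0.274. The limma adjusted p of KRT8 was 0.0699 without line A, 0.0514 without line B, 0.0794 without pool A and 0.123 as deposited. Of 9 keratins tested 6 fell and none rose, with a median relative change of -2.59. Without pool A, 3 were called lower. KRT19 was the exception in sign, at 17.2 and 48.6 against 14.8 and 8.75, and was not called.

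Among junction genes the lower calls also prevailed, with 21 of 28 lower and 3 higher, all under all 4 rescalings, and a median relative change of -2.79. Without pool A, and without pool B, 13 were called lower. ESRP1, which directs the epithelial form of splicing, was at 0.257 and 0.0852 against 57.0 and 61.5, a relative change of -6.20 (SE 0.23, limma adjusted p = 1.42e-05). F11R, the tight junction protein JAM-A, was at 3.17 and 5.46 against 91.4 and 91.5. EPCAM, an epithelial adhesion protein also found on human stem cells, was at 8.40 and 7.49 against 137 and 140. Desmosomal DSP, DSC2 and DSG2 were not called, with P10 levels of 26.8 to 43.0 in line A. The 3 that rose were CLDN3, CDH3 (P-cadherin) and LLGL2, a polarity protein.

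Transport genes of the outer epithelium were among the largest falls of the whole comparison. SLC1A1, a glutamate transporter, was at 0.489 and 0.359 in P10 cells and 382 and 448 in blastocysts. SLC34A2, a sodium-phosphate cotransporter, was at 0 and 0.0891 against 183 and 191. ENPEP, an aminopeptidase of apical membranes, was at 0.0347 and 0.0451 against 166 and 180. Relative changes of these 3 genes were -8.70, -8.01 and -7.90, with standard errors of 0.21 to 0.22. Water channel AQP3 was at 0.05 and 0.0764 against 41.8 and 48.5. Of 18 transport genes tested, 11 fell and 3 rose, and 11 and 1 of these kept the call under all 4 rescalings. Without pool A 3 were called lower, and without pool B 2. The riser was CA2, carbonic anhydrase, at 53.6 and 34.5 against 0.142 and 0. EZR, which links actin to apical membrane, was at 158 and 155 against 176 and 182 and was not called.

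Outside the lists, the rule for the strongest changes also named MPZL2, an adhesion protein (0.0204 and 0.113 against 269 and 361), and SPIC, an ETS-family factor listed at 0 in both lines and at 122 and 178 in the pools. S100A14, a calcium-binding protein, was at 2.13 and 2.97 against 397 and 355. CKMT1, a mitochondrial creatine kinase, was at 0.283 and 0.656 against 205 and 138. BRN and RNASE1, members of the secreted ribonuclease family, were at 439 and 486 and at 247 and 81.5 in the pools, and at or below 0.0803 in the lines. These 2 genes are close copies, so how reads were divided between them is uncertain. FAM151A was at 0.187 and 0.216 against 167 and 126. XPNPEP2, an aminopeptidase of cell membranes, was at 0.212 and 0.525 against 150 and 135. Among the strongest rises, MIF, a cytokine with tautomerase activity, was at 195 and 177 against 1.16 and 0.228.

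Hypoblast genes went both ways. The lineage factor GATA6 was at 0.160 and 0.0931 in P10 cells and 34.9 and 42.2 in blastocysts, a relative change of -5.64 (SE 0.21, limma adjusted p = 1.62e-05). HNF4A, a nuclear receptor of endoderm, was at 0.0286 and 0.0215 against 4.62 and 4.21. PDGFRA, a growth factor receptor of primitive endoderm, was at 0.989 and 2.31 against 36.0 and 52.6. Endocytosis adaptor DAB2 was at 1.82 and 2.91 against 122 and 140, and its partner receptor LRP2 at 17.6 and 11.3 against 166 and 255. Pools were the higher group for each of these 5 genes. Their levels did not overlap, as for 10070 of the 12027 genes tested. The apolipoproteins were opposite. APOE, a lipid carrier, was at 90.7 and 230 in P10 cells and 0 and 0.225 in the pools, and APOA1 was at 42.0 and 27.3 against 0.147 and 0.727. SOX17 was listed at 0 in all 4 libraries and GATA4 was at or below 1.05, both too low to be tested. Over the list, 8 of 18 fell and 6 rose, 8 and 4 under all 4 rescalings, with a median relative change of -0.60. Without pool A, and without pool B, 4 were called lower. Among basement membrane genes COL4A2 and NID1 rose, NID2 fell, and SPARC and LAMB1 were not called.

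Transcripts of the oocyte were still detectable in blastocysts. Of 14 tested members 11 fell in P10 cells and none rose, 9 of them under all 4 rescalings, and the median relative change was -2.30. None was called lower without pool A or without pool B. BMP15, an oocyte growth factor, was listed at 0 in both lines and was at 20.0 and 5.85 in the pools. ZP2, a protein of the egg coat, was at 0.0194 and 0.0304 against 18.5 and 6.96. BTG4, which clears maternal messages, was at 0.393 and 0.477 against 24.6 and 6.71. BMP15, ZP2 and BTG4 passed the filter only through the pools, so only a fall could be called for them. Pool A exceeded pool B in each of these, and in all 14 of the 14 tested members. Of 10 germline genes tested 7 fell and 2 rose. Without pool A, and without pool B, 1 was called lower. GTSF1, a piRNA pathway factor, was listed at 0 in the lines and was at 101 and 73.5 in the pools, while DMC1, a meiotic recombinase, was at 26.3 and 21.4 in P10 cells and 0.520 and 0 in the pools. Among genes of embryonic genome activation only ZSCAN4 was called, at 0.0347 and 0.0274 against 3.84 and 2.62. Of 3 cumulus and uterine genes tested, HAS2 rose and CYP19A1 fell.

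VIM, the intermediate filament of mesenchyme, was among the genes with the largest rises. It was at 565 and 780 in P10 cells and at 0 and 0.282 in blastocysts, a relative change of 8.68 (SE 0.23, limma adjusted p = 6.08e-06). Mesenchymal-type cadherins rose with it. CDH6 was at 65.8 and 82.4 and listed at 0 in both pools, and CDH11 was at 62.1 and 55.9 against 0.0355 and 0.107. ZEB2, a repressor of E-cadherin, was at 31.5 and 24.9 against 0.0330 and 0.133. Other members of the same list were lower. Fibronectin (FN1) was at 46.4 and 231 against 1286 and 1233, and MSN (moesin), ITGA5 and LGALS1 also fell. In all, 10 of 20 rose and 4 fell, near the 44.3% and 21.4% of all genes. Under all 4 rescalings 7 rose and 4 fell. The median relative change was 0.28, but -0.12 as deposited and -0.14 with the 4 libraries alone. Without line B, 6 were called higher.

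Fibroblast markers were higher in the P10 libraries, which were grown on feeders. Of 28 tested, 22 rose and 1 fell, 18 and 1 under all 4 rescalings. Summed over the 28 markers the level was 400 and 740 in P10 cells, 37.2 and 52.0 in the pools and 11550 and 14220 in the skin fibroblasts. MMP2, a matrix protease, was at 69.2 and 110 against 0.180 and 0.0435, and LUM, a matrix proteoglycan, was at 54.5 and 79.6 against 0 and 1.30. The collagen COL1A1 was at 37.2 and 58.1 in P10 cells, 0.226 and 0.717 in the pools and 1294 and 1525 in fibroblasts. Line B was the higher of the 2 lines for 23 of the 28 markers. COL1A2 was at 3.84 and 25.5 against 5.60 and 4.55 and was not called, and THY1 was at or below 2.57 in all 4 libraries. Without line A, COL1A2 was called higher, with a limma adjusted p of 0.00242. None of the markers was listed at 0 in both lines. The labels do not say whether feeder cells were removed before RNA was isolated. The part of feeder RNA in these values, VIM and the mesenchymal genes included, was not tested. Of 4 blood and endothelial markers tested, LYZ and TEK rose and none fell, LYZ alone under all 4 rescalings. Summed over the 11 such markers with a row, the level was 9.2 and 43.5 in the lines and 5.10 and 2.24 in the pools. LYZ was at 2.38 and 30.9 in the lines and 0.167 and 0 in the pools. TYROBP, too low to be tested, was at 0.577 and 7.94 in the lines and listed at 0 in both pools. PTPRC was at or below 0.301 in the 4 libraries and CD14 at or below 0.187. The part of blood cell RNA in the values of line B was not tested. The limma adjusted p of LYZ was 0.0683 without pool A and 0.0848 without pool B.

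Neuronal cytoskeleton and neural genes were mostly higher in the P10 cells. Of 26 tested 23 rose and 1 fell, 20 and 1 under all 4 rescalings, with a median relative change of 2.40. Without line A, and without line B, 10 were called higher. STMN2, a microtubule regulator of neurites, was at 528 and 393 in P10 cells and listed at 0 in blastocysts and fibroblasts. CRMP1, which acts in growth cone guidance, was at 103 and 103 against 0.102 and 0.891, a relative change of 5.65 (SE 0.30, limma adjusted p = 2.08e-05). DPYSL5 of the same family was at 44.0 and 30.3 against 0.365 and 0.0282, and MARCKSL1, an actin regulator, was at 204 and 139 against 2.63 and 1.94. Lower-level neural genes were DCX at 3.13 and 2.84 and the transcription factor SOX1 at 6.54 and 5.73, both listed at 0 in the pools. The one that fell was INA, a neurofilament-type protein, at 2.24 and 3.79 against 11 and 12.5.

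Heparin-binding growth factor and proteoglycan genes were higher in nearly every case tested. Of 19 tested 17 rose and 1 fell, 16 and 1 under all 4 rescalings, and the median relative change was 3.20. PTN (pleiotrophin) was at 486 and 430 against 1.32 and 0.978. The glypican GPC4, which carries heparan sulfate at the cell surface, was at 353 and 313 against 1.12 and 0.274, a relative change of 7.15 (SE 0.28, limma adjusted p = 1.18e-05). PTPRZ1, a phosphatase that binds pleiotrophin, was at 32.1 and 30.1 against 0.246 and 0.243, and the chondroitin sulfate proteoglycan VCAN at 41.4 and 45.5 against 0.0786 and 0.0640. Both groups were tight here, with pools near 0 and lines close to each other. The single fall was the syndecan SDC4, at 4.53 and 7.43 against 38.1 and 29.4, whereas SDC1, SDC2 and SDC3 rose. Of 17 laminin and integrin genes 7 were higher, near the 44.3% of all genes, and none lower. Without line B, 3 were called higher. LAMA5 was at 22.2 and 25.9 against 0.840 and 0.988, and ITGA6 and ITGB1, the laminin receptor pair, had relative changes of 1.12 and 1.10.

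Imprinted genes, which are expressed from 1 parental copy, were higher in the stem cells in 13 of 15 tested cases and lower in none, 10 under all 4 rescalings, with a median relative change of 2.27. NNAT (neuronatin) was at 418 and 280 against 0 and 0.105. MEST was at 151 and 446 against 1.10 and 1.20. Line B was the higher of the lines for MEST, and both pools were far below both. PEG10, a gene of retrotransposon origin, was at 122 and 145 against 0.0837 and 0.246, a relative change of 6.34 (SE 0.25, limma adjusted p = 1.12e-05). The growth factor IGF2 was lower in level, at 5.72 and 7.87 against 0 and 0.0333. CDKN1C, a cyclin-dependent kinase inhibitor, was at 4.89 and 10.2 and listed at 0 in the pools. NDN and PLAGL1 were not called. Levels say nothing of which parental copy was used.

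The FGF receptors differed in their order of abundance between stem cells and blastocysts. FGFR1 was at 117 and 125 in P10 cells and 0.408 and 0.241 in blastocysts, a relative change of 6.01 (SE 0.18, limma adjusted p = 6.55e-06). FGFR2 was at 46.4 and 27.4 against 3.12 and 2.48. FGFR4 was at 0.445 and 1.21 against 17.1 and 12.7, a relative change of -3.66 (SE 0.28, limma adjusted p = 0.000117). In RPKM, which is per length, FGFR4 was thus the most abundant of the 4 receptors FGFR1 to FGFR4 in both pools, and FGFR1 in both lines. FGFR3 was at 6.93 and 1.97 against 0.632 and 0.622, and its call was lost under another rescaling. Targets and feedback inhibitors of FGF and ERK signalling gave 10 rises and 2 falls among 18 tested, 8 and 2 of them under all 4 rescalings. ETV5, a transcription factor induced by ERK, was at 28.5 and 30.4 against 0.231 and 0.164, and SPRY1, an inhibitor of the pathway, at 23.7 and 38.2 against 0.396 and 0.446. The phosphatase DUSP4 was at 10.9 and 32.3 against 0.216 and 0. CCND1, a G1 cyclin, was at 9.68 and 27.2 and listed at 0 in both pools. DUSP5 and IER3 fell. The immediate early genes FOS and EGR1 were not called. The lines lay on both sides of the pools, with FOS at 58.5 and 1.58 in P10 cells and 8.30 and 8.17 in the pools.

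WNT pathway genes were more often higher than lower in the P10 cells, which were grown with a WNT inhibitor. Of 27 tested 17 rose and 2 fell, 12 and 2 under all 4 rescalings, with a median relative change of 0.95. Without line A 10 were called higher, and without line B 11. The frizzled receptor FZD2 was at 37.6 and 52.4 and listed at 0 in both pools, and FZD5 was at 54.2 and 39.6 against 0.152 and 0.0742. SFRP1, a secreted antagonist, was at 164 and 141 against 0.284 and 1.61, a relative change of 5.87 (SE 0.34, limma adjusted p = 2.42e-05). TCF7L2, which binds beta-catenin on DNA, was at 24.9 and 18.4 against 0.583 and 1.15. The feedback targets AXIN2 and LEF1 were not called, with AXIN2 at 0.833 and 1.21 against 2.25 and 1.44. NKD1, LGR5, SP5, RNF43 and most WNT ligands were too low to be tested. TCF7 and PORCN, which acylates WNT ligands, fell.

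Lower calls outnumbered higher ones in the LIF and STAT3 pathway. Of 13 genes 6 fell and 2 rose, all under all 4 rescalings, and the median relative change was -1.18. STAT3, the transcription factor that LIF activates, was at 4.82 and 9.19 against 40.8 and 41.5, a relative change of -2.97 (SE 0.28, limma adjusted p = 0.000354). The cytokine receptor IL6R was at 1.96 and 4.36 against 23.4 and 24.5, and the STAT3 target PIM1 at 7.39 and 5.30 against 45.1 and 18.2. As deposited, the limma adjusted p of PIM1 was 0.124. The receptors LIFR and IL6ST were not called. CNTFR, the receptor for ciliary neurotrophic factor, rose from 0.0964 and 0 in the pools to 28.0 and 44.3 in the lines, and the feedback inhibitor SOCS3 also rose.

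Genes of TGF-beta, NODAL and BMP signalling gave 13 rises and 4 falls among 28 tested, 9 and 4 of them under all 4 rescalings. The share of rises was near the 44.3% of all genes, and the median relative change was 0.37. Without pool A, 8 were called higher and 2 lower. FST (follistatin), which binds activin, was at 41.1 and 83.0 and listed at 0 in both pools. FSTL1, a related secreted protein, was at 173 and 146 against 1.56 and 1.06, a relative change of 5.60 (SE 0.20, limma adjusted p = 9.42e-06). The BMP target ID3 was at 120 and 64.9 against 0.715 and 0.141, and ID1 at 31.4 and 8.01 against 0.680 and 0.668. Both lines exceeded both pools in each of these 4 genes. Among all 12027 genes tested, 10070 had no overlap in either direction. Line A exceeded line B in ID1 and ID3. For ID1 the limma adjusted p was 0.0720 without line A, 0.0561 without pool A and 0.0586 without pool B. BMP4, SMAD1, SMAD7 and BAMBI, an inhibitory receptor, fell.

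Among HIPPO pathway genes 8 of 18 rose and 3 fell, 6 and 3 under all 4 rescalings, near the 44.3% and 21.4% of all genes, with a median relative change of 0.01. TEAD2 was at 151 and 128 in P10 cells and 4.63 and 2.72 in blastocysts, a relative change of 4.42 (SE 0.25, limma adjusted p = 2.15e-05), whereas TEAD4 fell as given above. The coactivator WWTR1, known as TAZ, was at 4.23 and 8.55 against 56.1 and 60.7, and the upstream regulator WWC1 at 0.704 and 1.10 against 20.2 and 18.4. AJUBA, an inhibitor of LATS kinases, was at 23.3 and 13.3 against 1.01 and 1.24.

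Insulin and IGF signalling genes gave 11 rises and 1 fall among 14 tested, 9 and 1 of them under all 4 rescalings, with a median relative change of 1.41. The adaptor IRS4 was at 215 and 252 in P10 cells, listed at 0 in both pools, and at or below 0.0116 in the fibroblasts. IGFBP2 and IGFBP3, secreted binding proteins of the IGFs, were at 354 and 408 against 15.4 and 18 and at 224 and 242 against 4.53 and 8.50.

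**Figure D4:**
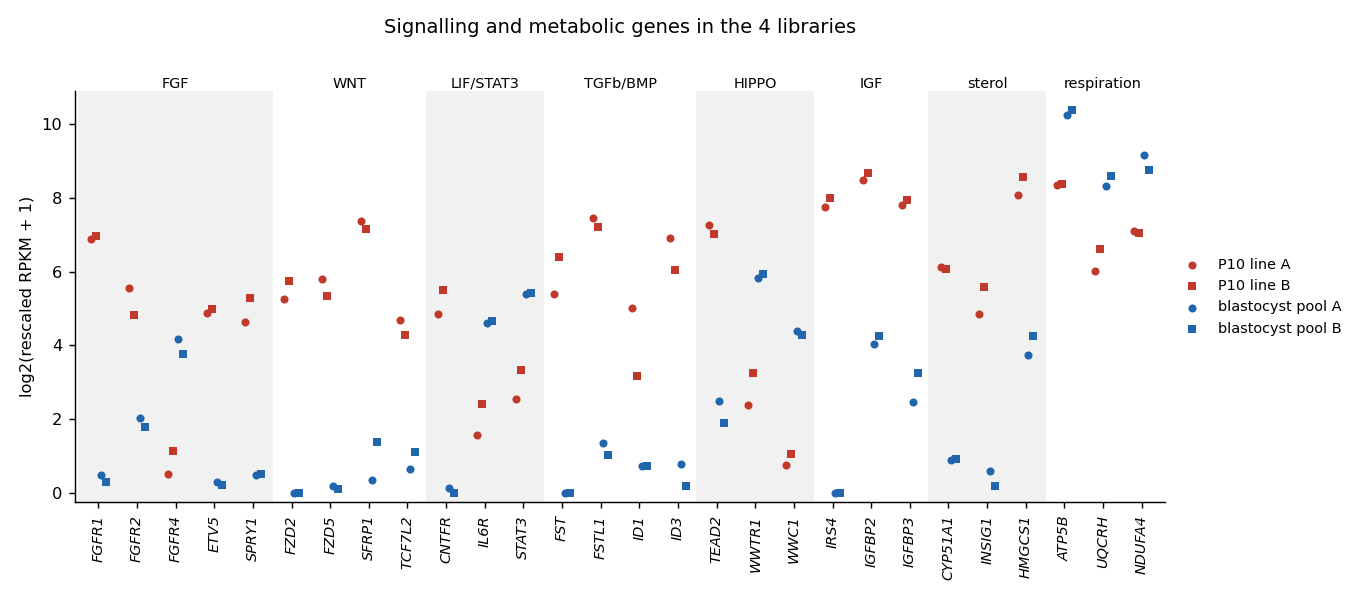
Level of each gene in each library, as log2(rescaled RPKM + 1), with P10 lines in red, blastocyst pools in blue, circles for A and squares for B. Within each gene the 2 lines lie on 1 side of the 2 pools, as for 10070 of the 12027 genes tested. FGFR4, IL6R, STAT3, WWTR1, WWC1 and the respiratory genes are higher in the pools and the others higher in the lines.

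DNA methylation enzymes moved in different directions. TET1, which oxidises methylcytosine, was at 24.4 and 12.9 in P10 cells and 133 and 177 in blastocysts, a relative change of -3.56 (SE 0.33, limma adjusted p = 0.00028). UHRF1, which brings the maintenance enzyme to replicated DNA, was at 76.7 and 31.7 against 2.49 and 1.41. The maintenance enzyme DNMT1 was at 51.9 and 33.6 against 6.30 and 8.37, and the de novo enzyme DNMT3A at 54.0 and 44.4 against 110 and 108. TDG, which removes oxidised methylcytosine, was at 33.1 and 24.7 against 2.88 and 3.00. Of 16 genes tested 8 rose and 4 fell, near the 44.3% and 21.4% of all genes, with a median relative change of 0.32. Under all 4 rescalings 7 rose and 4 fell. Without pool A, and without pool B, 2 were called lower.

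Of 24 polycomb genes 10 were higher and 5 lower, 8 and 5 under all 4 rescalings, near the 44.3% and 21.4% of all genes, with a median relative change of 0.02. CBX2, a chromodomain subunit of complex 1, was at 53.7 and 35.1 against 0.819 and 0.402, and PCGF2 at 41.2 and 46.2 against 1.87 and 2.07. EED and SUZ12, core subunits of complex 2, fell, while the catalytic EZH2 was at 67.5 and 35.4 against 44.2 and 38.3 and was not called. Genes of chromatin proteins and histone variants gave 19 rises and 1 fall among 25 tested, 13 and 1 of them under all 4 rescalings, with a median relative change of 0.87. The linker histone gene H1FX was at 240 and 205 against 0.824 and 0.202, a relative change of 6.72 (SE 0.25, limma adjusted p = 9.51e-06). The macroH2A gene H2AFY2 was at 126 and 86.4 against 1.03 and 1.21. HMGN1, a nucleosome-binding protein, was at 567 and 494 against 30.6 and 34.4. Of 13 oncofetal RNA-binding genes 9 rose and none fell, with MSI1 at 58.5 and 55.3 against 1.47 and 0.888 and HMGA1 at 594 and 525 against 86.3 and 84.1.

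Cell cycle genes went both ways, and their counts stand against 44.3% higher and 21.4% lower among all genes. In DNA replication 18 of 34 rose and 6 fell, 10 and 6 under all 4 rescalings, with a median relative change of 0.12. Without line A 9 were called higher, and without pool B 11. MCM2, a subunit of the replicative helicase, was at 109 and 71.2 against 10.9 and 7.31, and POLD1, a DNA polymerase, at 31.8 and 22.9 against 1.39 and 1.77. ORC1 and GINS1, which act in loading and activating the helicase, were lower, with GINS1 at 41.7 and 25.9 against 110 and 114. All 34 replication genes were higher in line A than in line B, with 1 library per line and no test. In mitosis 9 of 27 rose and 6 fell, 3 and 6 under all 4 rescalings, with a median relative change of -0.24. Without line B, 4 were called higher and 3 lower. The kinase AURKA was at 29.3 and 34.7 against 77.9 and 67.7 and KIF20A, a kinesin of cytokinesis, at 59.8 and 57.8 against 130 and 175. As deposited, without rescaling, the fitted change of AURKA was 0.16 and thus of opposite sign. The calls of KIF20A, GINS1 and ORC1 were also lost as deposited, with limma adjusted p of 0.971, 0.139 and 0.387. MKI67, a general marker of cycling cells, was at 68.7 and 48.3 against 45.1 and 49.0 and was not called. Of 21 p53 targets and inhibitors 7 rose and 5 fell. CDKN2D fell to 0.708 and 1.09 from 15.1 and 15.1 and BAX rose to 36.7 and 60.3 from 8.36 and 6.13.

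Cholesterol synthesis and uptake was the metabolic list with the most uniform rise. Of 23 genes 21 rose and 1 fell, all under all 4 rescalings, with a median relative change of 2.51. CYP51A1, a demethylase of the pathway, was at 68.8 and 65.9 in P10 cells and 0.852 and 0.888 in blastocysts. HMGCS1, an early enzyme, was at 268 and 373 against 12.4 and 18.2, and INSIG1, a sterol-regulated brake on the pathway, at 27.7 and 47.2 against 0.530 and 0.141. The transcription factor SREBF2 was at 65.1 and 77.5 against 3.44 and 4.32. Only STARD4, a sterol carrier, fell, and EBP was not called. In fibroblasts HMGCS1 was at 121 and 245. Of 32 fatty acid genes 14 were higher and 9 lower, against 44.3% and 21.4% of all genes, with a median relative change of -0.02. The desaturase SCD was at 321 and 262 against 26.9 and 22.8, and FABP3, a fatty acid carrier, fell to 71.3 and 53 from 248 and 158, with a limma adjusted p of 0.0687 without line B, 0.0725 without pool A and 0.453 as deposited.

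Nuclear genes of the respiratory chain were lower. Of 40 tested 26 fell and 4 rose, 25 and 1 under all 4 rescalings, with a median relative change of -1.44. ATP5B, the catalytic subunit of ATP synthase, was at 324 and 330 against 1203 and 1323, a relative change of -2.46 (SE 0.17, limma adjusted p = 0.000125). UQCRH of complex III was at 64.1 and 97.2 against 320 and 383, and NDUFA4 at 137 and 132 against 568 and 430. Subunits of complexes I to IV and of ATP synthase were among those that fell. Of 6 genes of the mitochondrial genome with a readable row, 3 fell and 1 rose, 2 and 1 under all 4 rescalings. ND5 of complex I was at 1312 and 695 against 5311 and 6687, while ATP8 was at 2706 and 2293 against 760 and 1159.

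Among glycolytic genes, members of the same enzyme family went opposite ways. The hexokinase HK2 was at 12.7 and 5.81 against 48.7 and 71.3, and HK1 was at 64.8 and 59.2 against 11.8 and 8.98. PFKM and PFKP, phosphofructokinases, were at 16.7 and 20.1 against 0.568 and 0.791 and at 16.7 and 14.3 with both pools listed at 0. The enolase ENO2 was at 14.7 and 26.8 against 0.127 and 0. Of 20 genes 10 rose and 6 fell, against 44.3% and 21.4% of all genes, with a median relative change of 0.16. Under all 4 rescalings 9 rose and 6 fell. The glucose transporter SLC2A1 and the lactate transporter SLC16A1 were among those that fell. Serine and one-carbon genes counted 22 tested members, of which 12 rose and 3 fell, with a median relative change of 0.80. PHGDH, the first enzyme of serine synthesis, was at 114 and 47.5 against 0.289 and 0.781. Line A was the higher line for 20 of these 22 genes.

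Genes of general cell function showed both directions. Ribosomal protein genes counted 61 tested members, of which 18 rose and 7 fell, shares of the list that lie below the background of 44.3% and 21.4%. RPLP0 was at 1291 and 1610 against 343 and 247 and RPL9 at 144 and 210 against 604 and 510, with a limma adjusted p for RPL9 of 0.270 as deposited. Line B was higher than line A for all 61, and pool A higher than pool B for 56. Proteasome genes counted 38 tested members, of which 12 rose and 6 fell, and splicing regulators rose in 15 of 27 and fell in none. KHDRBS1, an RNA-binding splicing factor, was at 158 and 101 against 7.03 and 5.33, and U2AF2, which recognises the splice acceptor tract, at 122 and 125 against 9.49 and 12.3. Lysosomal genes counted 27 tested members, of which 12 rose and 9 fell, with the mannosidase MANBA at 4.55 and 4.15 against 66.1 and 65.8. Redox genes counted 27 tested members, of which 8 rose and 4 fell, with SOD1, a superoxide dismutase, at 299 and 299 against 36.6 and 44.3. Interferon and MHC genes counted 22 tested members, of which 6 rose and 6 fell. The interferon-induced genes ISG15 and IFIT1 were at or below 0.281 in the lines and the pools.

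**Figure D5:**
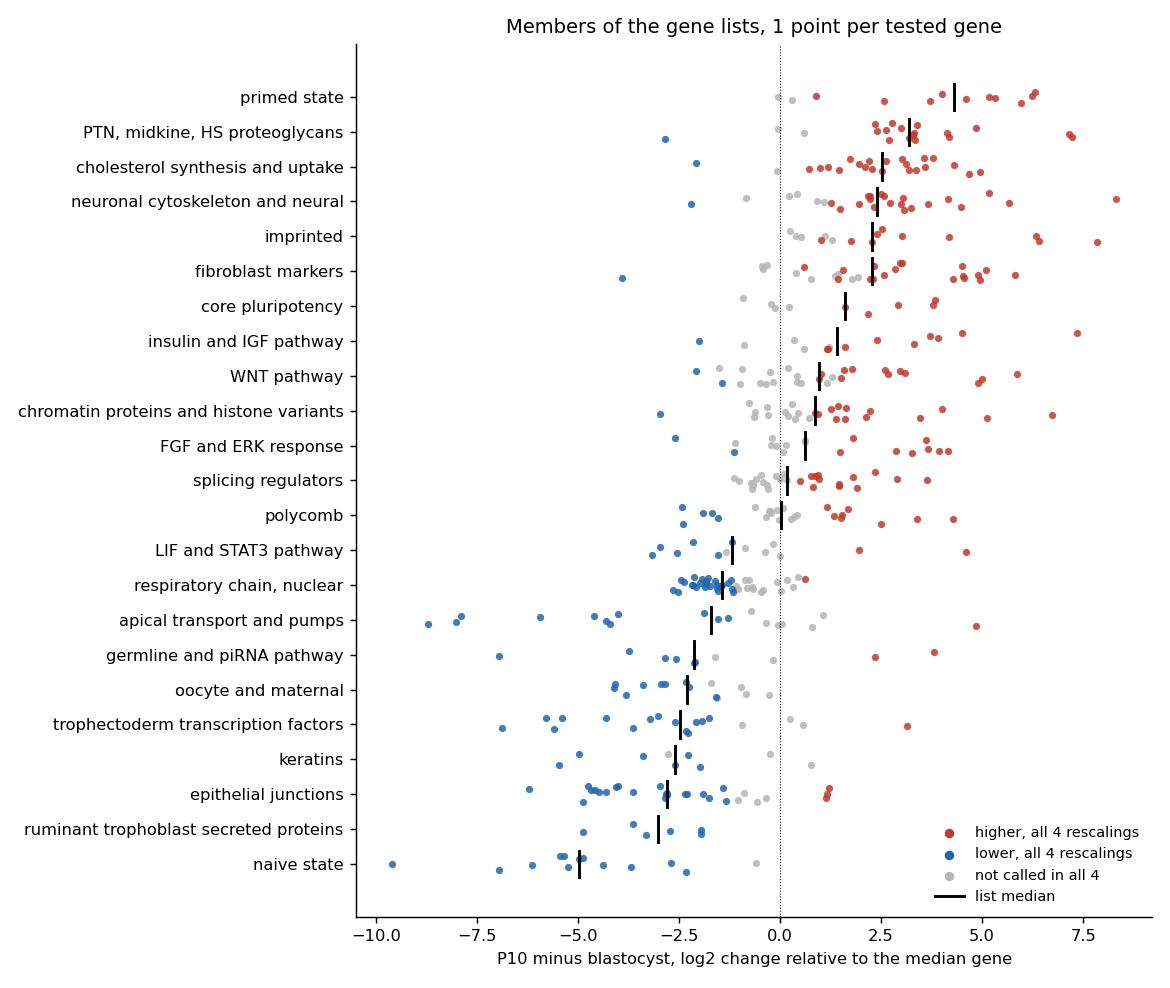
Relative log2 change (x axis, P10 minus blastocyst, median gene at 0) of every tested member of 23 gene lists, coloured by its call under all 4 rescalings, with a bar at each list's median. Medians run from -4.98 for naive-state genes to 4.29 for primed-state genes, in lists chosen with earlier results of these data known. Positions of genes listed at 0 in 1 group depend on the pseudocount of 1.

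Genes with the strongest differences were looked up in the fibroblast and later-passage libraries. Relative changes of at least 3 with a call under all 4 rescalings were found for 496 genes higher and 497 lower in P10 cells. Of the 496, 108 were under 1 in both fibroblast lines and 225 were at 10 or more in both. Of the 497, 250 were under 1 and 85 at 10 or more in both fibroblast lines. Among the 448 higher genes that also had a row in the 8 later-passage libraries of the same 2 lines, 320 were at 10 or more in all 8 and 1 was under 1 in all 8. Among 394 lower genes with such a row, 171 were under 1 in all 8 and 36 at 10 or more in all 8. These genes were picked for a difference that rests on the P10 levels of the same 2 lines. Shares of all genes at such levels in the fibroblast or later libraries were not counted. Whether the counts stand out from all genes can therefore not be said. STMN2 ranged from 301 to 462 in the later libraries, SOX2 from 110 to 154 and ZFP42 from 0.0478 to 0.289. IRS4 was lower there than at P10, from 18.6 to 97.6, and HK2 was higher, from 18.8 to 60.8. The later libraries were rescaled in the same way, but their files list other features, so these levels are set side by side without a test.

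Within the groups, single genes differed widely between the 2 lines and between the 2 pools. Line A held more of FOS (58.5 and 1.58), EGR1 (97.0 and 5.38), CHAC1 (27.1 and 1.28) and STC2 (10.6 and 0.818), the last 2 known as stress-induced genes. Line B held more of SPP1 (8.39 and 174), JSP.1 (3.27 and 59.6), NPTX1 (0.388 and 29.8) and MMP3 (1.24 and 27.8). SPP1 encodes osteopontin, JSP.1 an MHC class I chain and MMP3 a matrix protease. Between the pools, BTG4 (24.6 and 6.71), RGS2 (10.0 and 1.87), ADA (13.5 and 3.60) and JSP.1 (18.6 and 4.11) were higher in pool A. NANOG (1.39 and 11.7), PAG2 (10.2 and 37.2), COA7 (2.76 and 12.2) and GNG12 (2.86 and 12.2) were higher in pool B. With 1 library for each line and pool these differences have no test. The same holds for the counts above of list members higher in 1 line or 1 pool. Shares of all genes were not taken for those counts.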

How the data were processed

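RNA-seq libraries were made from total RNA with a TruSeq kit, per the labels' protocols. The authors deposited 1 RPKM value per gene and library. Per the submitters' processing notes, the authors used the UMD3.1 assembly and edgeR. Which steps these served, the aligner and the counting are not stated there. Depth in numbers of reads is therefore unknown, and counting error cannot be given. Of 23231 features, 26 with unreadable names, 25 turned into dates and 21 with blank values were left out.

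Each library was rescaled to its summed RPKM without its 2 most abundant features. Genes with at least 1 rescaled RPKM in 2 of the 6 libraries were tested on log2(rescaled RPKM + 1) with limma 3.58.1 (R 4.3.3), using moderated variances (eBayes with trend), 3 groups, two-sided tests and Benjamini-Hochberg adjustment over all genes tested. The pseudocount of 1 understates changes of low genes. A gene listed at 0 in a whole group is still counted and enters its list's median, though its fitted change varies with the pseudocount, so only its levels are printed. A 0 may be a failed estimate, since GAPDH was listed at 0 in all 6 libraries. Figures were drawn with matplotlib 3.10.9. The fit was also run on simulated data with independent noise and few changed genes, unlike these data. No result given here rests on that run.

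Members and gene lists were chosen with earlier results of these data known. Named genes were the 12 largest called changes per direction, at a mean of at least 10 and without overlap between the groups. To these were added up to 4 called members per list at a mean of at least 5, and POU5F1, SOX2 and NANOG. The 4 features per direction that differed most within a group were named too. Other genes were named after their values were seen. Some genes that this rule names are not reported here. Alternatives were other rescalings, no rescaling, a pseudocount of 0.1, other filters, the 4 libraries alone, a replicate block and leaving out each library.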

Additional observations from a re-analysis of the deposited data

How the results depend on the processing

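With the values as deposited, without rescaling, 8583 genes were called higher and 862 lower, higher calls made up 90.9% of calls, and the median gene's fitted change was 1.43. The other settings gave counts within 1.5 times of those reported: 5141 and 2716 when the 20 most abundant features were left out, 4050 and 3495 with median-of-ratios scaling, 3888 and 3600 with quantile normalization, 5336 and 2451 with a pseudocount of 0.1, 5768 and 2699 without a filter, 3954 and 2119 with a filter at 5 RPKM, and 5144 and 2534 with the 4 libraries alone. Leaving out 1 library gave 3876 to 4781 higher and 1638 to 2197 lower calls, the fewest lower calls without blastocyst pool B. The fitted log2 change turned positive as deposited for AURKA (0.16), CCNA2 (0.31), RPL38 (0.092) and PSMA6 (0.62), and with quantile normalization for ND1 (0.80). The letters A and B did not pair the samples, with correlations of deviations between -0.10 and 0.17, and a replicate block on them gave 5282 higher and 2542 lower calls. Of the 190 named genes with a call, 188 kept the sign of their relative change in every alternative run that tested them. The exceptions were ND1 and POU5F1. Of 197 named genes tested, 167 were tested without pool A and 167 without pool B. Without line A 181 were tested, and without line B 181. The spacing of low values gave a rough depth relative to fibroblast line A. It was 1.03 and 1.05 in pools A and B and 1.25 and 1.56 in P10 lines A and B. Features listed at 0 numbered 10023 and 10356 in the pools and 7975 and 7190 in the P10 lines. The part of depth in values listed at 0 was not tested, and without read counts what depth limits cannot be stated.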

Other observations

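Features of the histone clusters, whose messages encode the replication-dependent histones, were chosen after their values were seen. Of 37 with a row 25 were tested, 22 were called lower in P10 stem cells and none higher, 21 of them under all 4 rescalings. Summed over all 37, the level was 14.5 and 24.7 in lines A and B, 637 and 649 in blastocyst pools A and B, and 11.4 and 8.98 in fibroblasts. HIST1H2BK was at 0.324 and 0.751 in the lines and 142 and 128 in the pools, a relative change of -6.99 with a limma adjusted p of 1.31e-05. HIST1H1C was at 0.273 and 1.90 against 87.6 and 79.4. These genes are near-identical copies, so the split of reads among them is uncertain.

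Features named 7SK, a small nuclear RNA, summed to 7.78 and 5.43 in the lines and 106 and 217 in the pools, with 2 of 117 features high enough to test and 1 called lower. They too were chosen after their values were seen and are repeated copies. Of 8 U-numbered small nuclear RNA features tested, 6 were called lower and none higher, all 6 under every rescaling. Small nucleolar RNA features went both ways, with 17 called higher and 19 lower of 51 tested, 11 and 17 under every rescaling. The part of library preparation in the levels of histone cluster and small RNA features was not tested.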
